A study of Mus musculus with 34 samples.

Results

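The insulin-like growth factor (IGF) system was examined in embryonic mouse limb buds through 10 genes, chosen by symbol from the 22040 genes of the RNA-seq table: the ligands *Igf1* and *Igf2*, the receptors *Igf1r* and *Igf2r*, the binding proteins *Igfbp2*, *Igfbp3*, *Igfbp4* and *Igfbp5*, and the mRNA-binding proteins *Igf2bp1* and *Igf2bp3*. All 10 were found in the table, and all 10 passed the filter on low values. IGF1 and IGF2 are secreted growth factors that signal through the IGF1 receptor, a tyrosine kinase, to PI3K and AKT and to the MAP kinases, and they are main drivers of growth in the embryo. The IGF2 receptor takes up IGF2 and delivers it to lysosomes without signalling like the IGF1 receptor, and the IGF binding proteins hold the ligands outside the cell and either shield or release them. The IGF2BP proteins are oncofetal RNA-binding proteins, highly expressed in the embryo and low in most adult tissues, named for their binding to *Igf2* mRNA.

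RNA was taken from E11.5 limb bud cells of WT embryos and of embryos with a conditional knockout (CKO, *Prrx1-Cre;Hnrnpk fl/fl*), in 3 libraries of each genotype. Prrx1-Cre acts in the limb bud mesenchyme and the calvarium, so ectoderm, blood and vessel cells of the bud are not its targets, and its activity in the hindlimb is incomplete. Embryos of both sexes were used. The genotype label of the controls says WT and does not state whether they carried floxed alleles or Cre, and the labels do not say which limbs or how many embryos went into a library or what a shared replicate number stands for. *Hnrnpk*, the deleted gene, had an FPKM of 193, 195 and 185 in WT and 127, 142 and 135 in CKO libraries. It was lower in every CKO library, at 0.706 times the WT level, and was itself not called (adjusted *p* of 0.334 in limma, or 0.0575 with the replicate number as a block). The deletion removes only some of its exons, so reads on the others can still count, and cells that Cre does not target are in the bud. The part of either in the *Hnrnpk* values was not tested. The paper reports efficient loss of Hnrnpk in E11.5 CKO limb buds by western blot and qPCR. FPKM is the number of fragments on a gene per kilobase of its exons and scaled to the size of the library, so it can be compared between genes. Between 17140869 and 24624434 reads per library fell on the listed genes, and between 549 reads (*Igfbp3* in WT replicate 1) and 15164 reads (*Igfbp4* in WT replicate 2) stood behind each value of an IGF gene. Transcripts of 7 globin genes took between 13.7% and 20.6% of the summed FPKM in the WT libraries and between 11.7% and 32.4% in the CKO libraries. Fewer cells of a type and less RNA per cell cannot be told apart in such bulk libraries.

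None of the 10 IGF genes was called different between CKO and WT limb buds. The log2 fold changes, on the log2(FPKM + 0.1) scale, lay between -0.19 for *Igf1* and 0.23 for *Igf2bp1*, with standard errors between 0.14 and 0.26. In limma over 12305 tested genes, the Benjamini-Hochberg adjusted *p* values of the 10 genes ran from 0.81 to 0.979, and 0.0650% of all tested genes were called at an adjusted *p* value under 0.05. The unadjusted *p* value was under 0.05 for 0 of the 10 genes, against 8.31% of all tested genes. In 0 of the 10 genes were the 3 CKO values all above or all below the 3 WT values, against 14.5% of all tested genes, and the exact two-sided permutation *p* values (n = 3 per genotype) ran from 0.2 to 0.8, where the smallest possible value is 0.1. The groups thus overlapped for each member, as the plot of the single libraries shows.

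**Figure D1:**
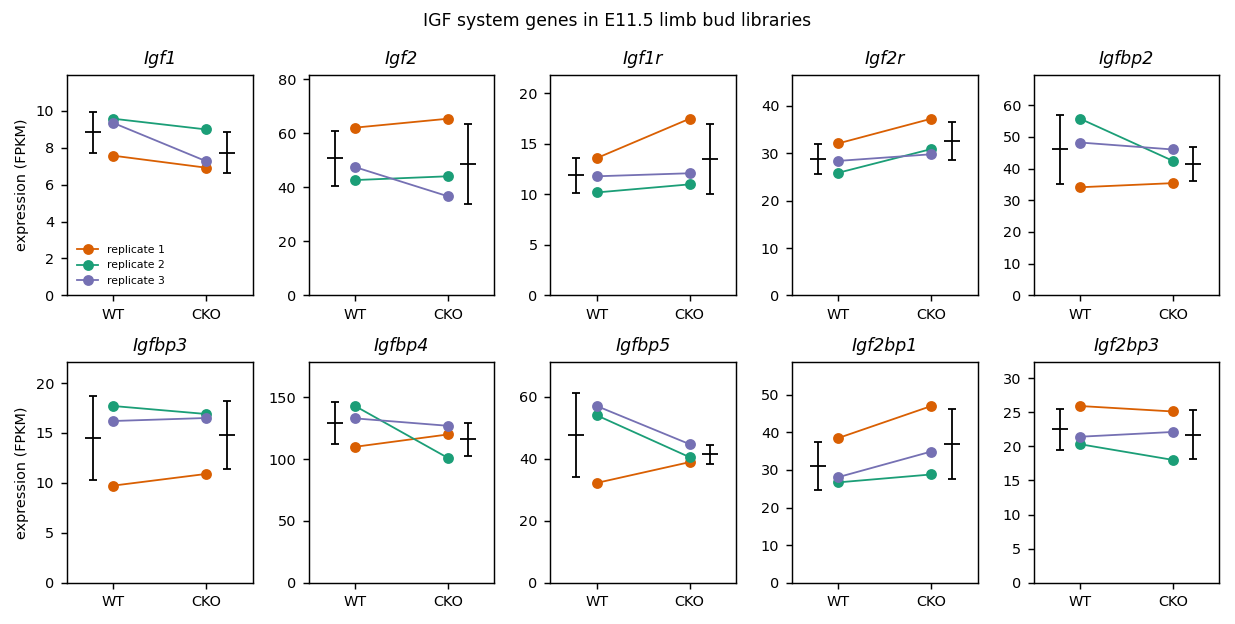
FPKM (y axis, starting at 0) of the 10 IGF genes in the 3 WT and 3 CKO libraries. Points are single libraries, lines join libraries with the same replicate number, and the black bars beside them are the mean and SD of each genotype. In most panels the line of replicate 1 stands apart from the lines of replicates 2 and 3, while WT and CKO overlap in all 10 panels.

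The intervals limit how large an unseen difference could be. The 95% interval of the fold change lay between 0.5 and 2 for 10 of the 10 genes, and inside 1.5-fold in either direction for 4 of them. The libraries of replicate 1 deviated together, while those of replicates 2 and 3 correlated across the 2 numbers as much as within them. What a number stands for is not given. The number was also entered as a block, so that each CKO library is set against the WT library of its number. The blocked results rest on that pairing. With this replicate block the standard errors fell to between 0.10 and 0.14, and the 95% interval lay inside 1.5-fold in either direction for 10 of the 10 genes. None of the 10 was called in the blocked fit either (adjusted *p* values from 0.255 to 0.867, limma), while 2.81% of all tested genes were. Limma voom on the recovered reads called 0 of the 10 as well, both without and with the block. *Igf2bp1* alone had an unadjusted *p* value under 0.05 in the blocked fit (0.0439, limma), against 18.4% of all tested genes. A *p* value that misses the threshold does not show that a gene is equal in the 2 genotypes.

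**Figure D2:**
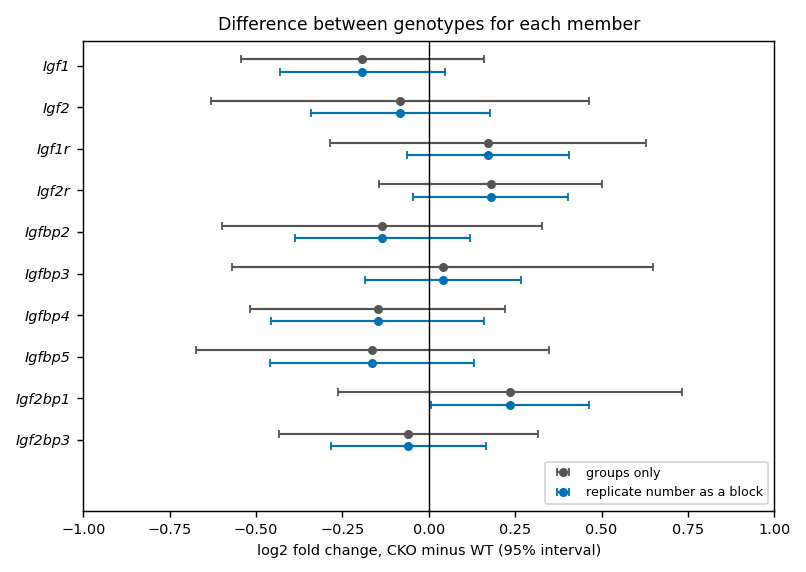
Log2 fold change of CKO minus WT (x axis) for each of the 10 IGF genes, with 95% intervals from limma on the groups only (grey) and with the replicate number as a block (blue). Each of the grey intervals crosses 0, and among the blue ones that of *Igf2bp1*, from 0.01 to 0.46, does not.

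Of the ligands, *Igf2* was the more abundant. *Igf2* (ENSMUSG00000048583, chromosome 7 of GRCm38 from 142650766 to 142666816, minus strand), an imprinted gene expressed from the paternal allele, had an FPKM of 62.1, 42.7 and 47.5 in WT and 65.4, 44.1 and 36.7 in CKO replicates 1, 2 and 3. Replicate 1 was the highest library of both genotypes, and the CKO values lay on both sides of the WT values. The WT mean was 50.7 ± 10.1 (SD, n = 3) and the CKO mean 48.7 ± 14.9 (SD, n = 3), with a log2 fold change of -0.08 (limma, SE 0.24, adjusted *p* = 0.95). Without WT replicate 1 the log2 fold change was 0.07, and without CKO replicate 3 it was 0.10, so its direction rested on single libraries. The exons of *Igf2* share 3596 of 5723 bases with *Gm49394*, an annotated read-through gene on the same strand, and 98 bases with the antisense gene *Igf2os*. How reads on shared bases were counted is not given in the sources used here, so the level of *Igf2* is uncertain.

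*Igf1* (ENSMUSG00000020053, chromosome 10 from 87858265 to 87937042, plus strand), the ligand that mediates much of the action of growth hormone after birth, had the lowest level of the 10 genes. Its FPKM was 7.56, 9.56 and 9.33 in WT and 6.91, 8.98 and 7.26 in CKO replicates 1, 2 and 3. Within each replicate number the CKO library was the lower one, with differences of -0.13, -0.09 and -0.36 on the log2 scale, but CKO replicate 2 exceeded WT replicate 1. The WT mean was 8.82 ± 1.09 (SD, n = 3) and the CKO mean 7.71 ± 1.11 (SD, n = 3), a log2 fold change of -0.19 with a 95% interval from -0.54 to 0.16 (limma adjusted *p* = 0.811). Without CKO replicate 2, or with the globin genes left out and the rest rescaled, the WT and CKO values of *Igf1* no longer overlapped, as in 20.8% and 13.9% of all tested genes. The log2 fold changes were then -0.30 and -0.30 and the adjusted *p* values 0.898 and 0.664 (limma). On the rescaled values the median log2 fold change of all tested genes was -0.10.

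The receptors were both higher in CKO within every replicate number, with groups that overlapped. *Igf1r* (ENSMUSG00000005533, chromosome 7 from 67952827 to 68233668, plus strand), which carries the growth signal of both ligands, had an FPKM of 13.6, 10.2 and 11.8 in WT and 17.5, 11 and 12.1 in CKO replicates 1, 2 and 3. CKO replicate 1 was the highest of the 6 libraries, and the other CKO values fell inside the WT range. The log2 fold change was 0.17 (limma, SE 0.20, adjusted *p* = 0.869) and became -0.03 without CKO replicate 1. The differences within replicates 1, 2 and 3 were 0.36, 0.12 and 0.04 on the log2 scale. They rest on the pairing by number, whose meaning is not given, and WT replicate 3 lay above CKO replicate 2.

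*Igf2r* (ENSMUSG00000023830, chromosome 17 from 12682406 to 12769664, minus strand), the scavenger receptor for IGF2, is imprinted in the mouse and expressed from the maternal allele. Its FPKM was 32.1, 25.9 and 28.4 in WT and 37.3, 30.9 and 29.8 in CKO replicates 1, 2 and 3. Only WT replicate 1 kept the groups from separating, since it lay above CKO replicates 2 and 3. The WT mean was 28.8 ± 3.10 (SD, n = 3) and the CKO mean 32.7 ± 4.01 (SD, n = 3), a log2 fold change of 0.18 with a 95% interval from -0.14 to 0.50 (limma adjusted *p* = 0.81). In FPKM, *Igf2r* was between 2.13 and 2.80 times as abundant as *Igf1r* in the single libraries, with the lowest and the highest ratio both in CKO.

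The 4 binding protein genes included the gene with the highest FPKM of the 10, *Igfbp4*, although the level of *Igf2* is uncertain. *Igfbp4* (ENSMUSG00000017493, chromosome 11 from 99041244 to 99054392, plus strand) encodes a binding protein that is cleaved by the protease PAPP-A to free the ligand. Its FPKM was 110, 143 and 133 in WT and 120, 101 and 127 in CKO replicates 1, 2 and 3, above 97.8% of the tested genes. The largest difference within a number was in replicate 2, with -0.51 for CKO minus WT on the log2 scale, while in replicate 1 CKO was the higher one. The WT mean was 129 ± 17.1 (SD, n = 3) and the CKO mean 116 ± 13.4 (SD, n = 3), and the log2 fold change was -0.15 (limma, SE 0.16, adjusted *p* = 0.865).

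*Igfbp5* (ENSMUSG00000026185, chromosome 1 from 72857932 to 72874884, minus strand) encodes a binding protein that attaches to extracellular matrix and is abundant in skeletal tissue. Its FPKM was 32.2, 54.0 and 57.0 in WT and 38.9, 40.5 and 44.7 in CKO replicates 1, 2 and 3. The CKO libraries lay close together, whereas WT replicate 1 was the lowest and WT replicates 2 and 3 the highest of the 6. Over all 6 libraries the log2 fold change was -0.16 (limma, SE 0.22, adjusted *p* = 0.889). In replicates 2 and 3 alone it was -0.38 and passed the threshold (limma, SE 0.13, adjusted *p* = 0.0447), a setting in which 15.1% of all tested genes were called and 1 of the 10 IGF genes. In replicate 1 the difference ran the other way, with CKO higher by 0.27 on the log2 scale. Across the other alternatives the adjusted *p* value of *Igfbp5* was between 0.337, without WT replicate 1, and 1.

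*Igfbp2* (ENSMUSG00000039323, chromosome 1 from 72824503 to 72852474, plus strand) lies beside *Igfbp5*, and the 3′ ends of the genes face each other across 5457 bases. It encodes a binding protein with a preference for IGF2 that is widespread in the embryo. Its FPKM was 34.1, 55.7 and 48.2 in WT and 35.4, 42.4 and 46.0 in CKO replicates 1, 2 and 3, so replicate 1 was the lowest of each genotype, as for *Igfbp5*. The log2 fold change was -0.13 (limma, SE 0.20, adjusted *p* = 0.904), and without WT replicate 2 it was 0.02.

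*Igfbp3* (ENSMUSG00000020427, chromosome 11 from 7206086 to 7213923, minus strand) encodes the main IGF carrier of adult serum. With an FPKM of 9.73, 17.7 and 16.2 in WT and 10.9, 16.9 and 16.5 in CKO replicates 1, 2 and 3, it split by replicate number and hardly by genotype. The WT mean was 14.5 ± 4.23 (SD, n = 3) and the CKO mean 14.8 ± 3.37 (SD, n = 3), a log2 fold change of 0.04 (limma, SE 0.26, adjusted *p* = 0.979). Its sign turned without WT replicate 1 (-0.22), without CKO replicate 2 (-0.07), without CKO replicate 3 (-0.05), in replicates 2 and 3 alone (-0.02) and on the values rescaled without globin genes (-0.07).

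The make-up of the binding protein pool differed between the genotypes by less than 1 percentage point for each gene. *Igfbp4* supplied 54.8% ± 3.8 (SD, n = 3) of the summed FPKM of the 4 genes in WT and 54.3% ± 4.11 (SD, n = 3) in CKO. The share of *Igfbp2* was 19.3% ± 1.14 (SD, n = 3) and 19.3% ± 1.95 (SD, n = 3), that of *Igfbp5* 19.9% ± 2.57 (SD, n = 3) and 19.4% ± 0.672 (SD, n = 3), and that of *Igfbp3* 6.05% ± 0.708 (SD, n = 3) and 6.92% ± 1.56 (SD, n = 3). The summed FPKM was 186, 271 and 254 in WT and 205, 201 and 234 in CKO replicates 1, 2 and 3, again lowest in replicate 1 among the WT libraries. Exact permutation *p* values for the 4 shares ran from 0.4 to 1.

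*Igf2bp1* (ENSMUSG00000013415, chromosome 11 from 95957163 to 96005940, minus strand) had the largest log2 fold change of the 10 genes. The protein, also known as IMP1, stabilizes mRNAs and carries them within the cell. Its FPKM was 38.5, 26.7 and 28.1 in WT and 47.0, 28.8 and 34.9 in CKO replicates 1, 2 and 3. Within each number the CKO library was the higher one, by 0.29, 0.11 and 0.31 on the log2 scale, but WT replicate 1 lay above CKO replicates 2 and 3. The WT mean was 31.1 ± 6.46 (SD, n = 3) and the CKO mean 36.9 ± 9.27 (SD, n = 3), a log2 fold change of 0.23 (limma, SE 0.21, adjusted *p* = 0.837, and 0.255 with the replicate block).

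*Igf2bp3* (ENSMUSG00000029814, chromosome 6 from 49085223 to 49214957, minus strand), the paralog also known as IMP3, had an FPKM of 25.9, 20.3 and 21.4 in WT and of 25.1, 18 and 22.1 in CKO replicates 1, 2 and 3. Replicate 1 was the highest library in both genotypes and the means differed by less than the SD, with 22.5 ± 2.98 (SD, n = 3) in the WT and 21.7 ± 3.57 (SD, n = 3) in the CKO libraries. The log2 fold change of -0.06 (limma, SE 0.16, adjusted *p* = 0.949) became 0.05 without WT replicate 1 and 0.07 without CKO replicate 2. *Igf2bp3* shares 1529 of its 8159 exon bases with *Malsu1* on the opposite strand. The library kit keeps the strand, but whether the counting used it is not given in the sources used here.

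The proportions of the 3 paralogs were also set beside each other, a comparison chosen after the values of the members were seen. *Igf2bp2*, the third paralog, which is no member, had an FPKM of 43.1, 35.8 and 38.0 in WT and of 46.0, 31.8 and 37.3 in CKO. Of the summed FPKM of the 3 paralogs, *Igf2bp1* made up 35.8%, 32.3% and 32.1% in WT and 39.8%, 36.7% and 37.0% in CKO replicates 1, 2 and 3. The share was higher in each CKO library than in every WT library, by 4.42 percentage points in the mean (exact permutation *p* = 0.1, the smallest that 3 libraries against 3 can give, n = 3 per genotype). *Igf2bp3* made up 24.1%, 24.5% and 24.5% in WT and 21.2%, 22.9% and 23.4% in CKO, lower in each CKO library, with a mean difference of -1.84 percentage points (exact permutation *p* = 0.1, n = 3 per genotype). Leaving out any single library, the *Igf2bp1* difference stayed between 3.43 and 5.64 points. That of *Igf2bp3* stayed between -2.30 points and -1.21 points, the latter without CKO replicate 1. The share of *Igf2bp2* overlapped between the genotypes, at 42.2% ± 1.88 (SD, n = 3) in the WT and 39.7% ± 0.766 (SD, n = 3) in the CKO libraries. A share does not depend on how libraries are scaled. As the comparison was picked after the values were seen, these shares are given as a description. In their levels 14.5% of all tested genes did not overlap, but no such figure was made for shares. The shares are parts of the same sum, so they are not independent of each other.

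*Igf2bp1* is a textbook target of the let-7 microRNAs, which rise as embryonic tissue matures and which LIN28 proteins hold back. MicroRNAs were not measured in these libraries. The sequences are shown as background. *Igf2bp1*, like *Lin28a*, *Lin28b* and *Trim71* on the let-7 target list, was highest in replicate 1 of both genotypes, as described further on. So were *Igf1r*, *Igf2r* and *Igf2bp3*, and also *Igf2*, whose 3′ UTR held no match in the search below. *Hmga2*, the fourth gene of the let-7 target list, differed little in replicate 1. A part of let-7 in these levels was not tested. Of the 11 distinct mature let-7 family sequences in the RefSeq table (GRCm38.p6), 10 share the seed, bases 2 to 8, and let-7j is the exception. In the following 4, the seed is in capitals.

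let-7a-5p: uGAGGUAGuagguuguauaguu

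let-7b-5p: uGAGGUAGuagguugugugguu

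let-7g-5p: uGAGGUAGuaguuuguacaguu

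miR-98-5p: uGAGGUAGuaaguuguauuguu

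The complement of this seed, CTACCTC, was searched in the transcript sequence of the longest annotated 3′ UTR of each gene (GENCODE vM21, GRCm38), with overlapping matches counted. It occurred in 10.6% of the 3′ UTRs of 12172 tested genes. The 3′ UTR of *Igf2bp1* (6337 bases) held 4 matches, and 0.526% of the 380 3′ UTRs of like length, from 80% to 120% of its own, held as many, while 36.3% held at least 1. *Igf1r* held 2 matches in 7267 bases (8.94% of 3′ UTRs of like length held as many), and *Igf1*, *Igf2r*, *Igfbp5* and *Igf2bp3* held 1 each. The letters did not occur in the 3′ UTRs of *Igf2*, *Igfbp2*, *Igfbp3* and *Igfbp4*. Of the let-7 targets on the pathway list, *Lin28b*, *Hmga2* and *Trim71* held 4 matches each and *Lin28a* held 2. The sites of *Igf2bp1*, that of *Igf2bp3* and those of *Igf1r* are given as 22 bases of the transcript sequence, with the seed match in capitals.

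*Igf2bp1*, chr11:95961778-95961799: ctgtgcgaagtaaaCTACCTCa

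*Igf2bp1*, chr11:95959357-95959378: agcagtgctattaaCTACCTCa

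*Igf2bp1*, chr11:95958763-95958784: tataaatggatgaaCTACCTCa

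*Igf2bp1*, chr11:95958140-95958161: cttttggttttaatCTACCTCt

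*Igf2bp3*, chr6:49086787-49086808: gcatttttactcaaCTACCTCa

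*Igf1r*, chr7:68229111-68229132: tttcaaacatttatCTACCTCa

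*Igf1r*, chr7:68233217-68233238: ttgccagagttcatCTACCTCt

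A match is a description of the letters and does not show that a site is used.

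For 9 of the 10 genes, more of the spread went with the replicate number than with the genotype. For each gene, the sum of squares of log2(FPKM + 0.1) over the 6 libraries was split into the part that goes with the genotype, the part that goes with the replicate number and the rest. The replicate number took a median of 79.5% over the 10 IGF genes and the genotype a median of 10.1%, against medians of 55.0% and 15.0% over all tested genes. It took over 50% in 9 of the 10 genes and in 54.6% of all tested genes. *Igfbp3* had the highest part for the replicate number (97.8%) and *Igfbp4* the lowest (18.3%), and *Igf2r* had the highest part for the genotype (31.2%). These are descriptions of 6 libraries, in which 3 replicate numbers are set beside 2 genotypes.

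Replicate 1 stood apart from replicates 2 and 3 in the same direction in WT and CKO for 9 of the 10 genes. *Igf2*, *Igf1r*, *Igf2r*, *Igf2bp1* and *Igf2bp3* were higher in replicate 1 of both genotypes than the mean of replicates 2 and 3, on the log2 scale by 0.46 in WT and 0.70 in CKO for *Igf2* and by 0.49 and 0.57 for *Igf2bp1*. *Igf1*, *Igfbp2*, *Igfbp3* and *Igfbp5* were lower in replicate 1 of both, with differences of -0.79 in WT and -0.61 in CKO for *Igfbp3* and of -0.32 and -0.22 for *Igf1*. *Igfbp4* was the exception, with -0.33 in WT and 0.09 in CKO. Over all tested genes, 74.7% had the same sign in both genotypes. The oncofetal genes *Lin28a*, with an FPKM of 7.82, 1.74 and 1.64 in WT and 4.38, 1.48 and 2.27 in CKO replicates 1, 2 and 3, and *Trim71*, with 11.2, 4.21 and 4.52 in WT and 10.8, 4.05 and 5.52 in CKO, were also highest in replicate 1 of both genotypes. *Lin28b* and *Hmga2*, the other genes of that list, are named after their values were seen. *Lin28b* had an FPKM of 13.5, 5.42 and 6.22 in WT and 9.72, 6.75 and 6.84 in CKO. *Hmga2* had 163, 149 and 153 in WT and 161, 140 and 151 in CKO, so that replicate 1 exceeded the mean of replicates 2 and 3 by only 0.10 and 0.15 on the log2 scale, against 0.51 to 2.15 for the other 3 genes.

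**Figure D3:**
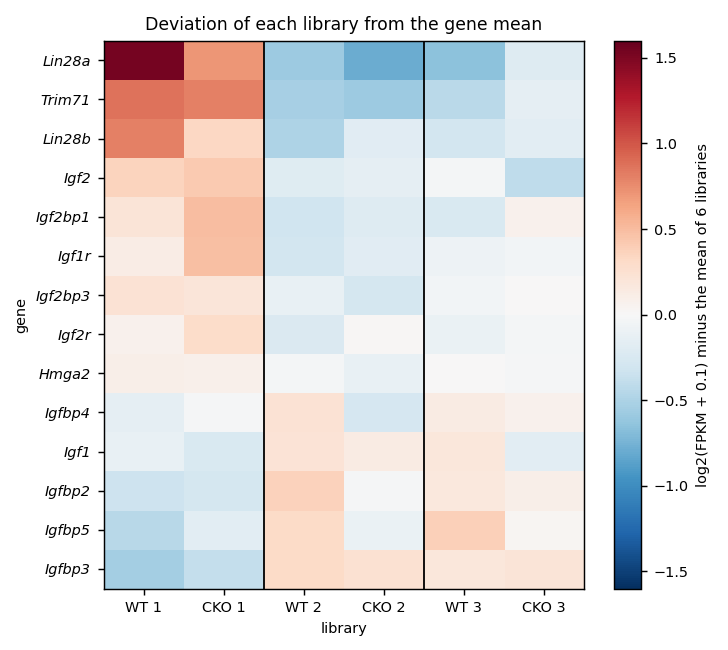
Deviation of each library (x axis, ordered by replicate number) from the mean of the 6 libraries on the log2(FPKM + 0.1) scale, as colour, for the 10 IGF genes and the 4 listed let-7 targets *Lin28a*, *Lin28b*, *Trim71* and *Hmga2* (y axis). Vertical lines separate the replicate numbers. The WT and CKO columns of replicate 1 are red for the upper genes, faintly so for *Hmga2*, and blue for *Igf1*, *Igfbp2*, *Igfbp5* and *Igfbp3*.

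Sums of the erythroid and muscle precursor markers also differed between replicate 1 and the other libraries. The summed FPKM of 12 erythroid markers was 38000 in WT replicate 1 and 31000 in CKO replicate 1, against 63500 and 64300 in WT and 143000 and 85800 in CKO replicates 2 and 3. That of 8 muscle precursor markers was 16.2 in WT replicate 1 and 34.9 in CKO replicate 1, against 46.3 to 68.2 in the other libraries. The 12 limb mesenchyme markers summed to between 453 and 526 in WT and between 432 and 484 in CKO libraries, and each of them was above 0 in every library. The sums of 8 endothelial markers were 36.5, 26.5 and 29.1 in WT and 18.3, 28.5 and 26.5 in CKO replicates 1, 2 and 3, so replicate 1 was the highest WT and the lowest CKO library. The sums were lowest in replicate 1 of both genotypes for the following lists too. Those of 8 ectoderm markers were 46.9 to 78.0 in WT and 51.7 to 80.2 in CKO, those of 8 macrophage markers 19.7 to 29.6 and 22 to 39.8, and those of 6 neural crest and Schwann precursor markers 5.66 to 13.3 and 10.9 to 13.2. On the log2 scale 12 of 12 erythroid markers had a higher mean in CKO and 8 of 8 endothelial markers a lower one. Of the tested markers of the other lists, 6 of 6 muscle precursor and 4 of 4 neural crest and Schwann precursor markers were higher. So were 7 of 8 ectoderm and 6 of 7 macrophage markers, while 9 of 12 limb mesenchyme markers were lower. In the fit without the block, 0 markers of any list were called, against 0.0650% of all tested genes. With the replicate block, 1 of 12 limb mesenchyme and 1 of 6 tested muscle precursor markers were called between the genotypes. No marker of the other lists was called, and of all tested genes 2.81% were called in that fit. The part of these cells in the values of the IGF genes was not tested.

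Within the replicate numbers, 4 of the 10 genes kept one direction in all 3 pairs, *Igf1* lower and *Igf1r*, *Igf2r* and *Igf2bp1* higher in CKO. Of all tested genes, 39.5% kept one direction. Both figures rest on the pairing by number. With WT replicate 1 left out, WT and CKO did not overlap for 6 of the 10 genes, *Igf1*, *Igf2r*, *Igfbp2*, *Igfbp4*, *Igfbp5* and *Igf2bp1*, against 31.6% of all tested genes. With CKO replicate 1 left out instead, it was 0 of the 10 genes, against 41.9% of all tested genes. In replicates 2 and 3 alone the same 6 genes did not overlap, against 58.5% of all tested genes.

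The order of the levels was the same in the means of both genotypes, from *Igfbp4* through *Igf2*, *Igfbp5*, *Igfbp2*, *Igf2bp1*, *Igf2r*, *Igf2bp3*, *Igfbp3* and *Igf1r* to *Igf1*. The place of *Igf2* is uncertain, since it is not known how its reads shared with *Gm49394* were counted. In FPKM, the ranges of the WT libraries did not overlap between *Igfbp4* and *Igf2*, between *Igf2r* and *Igf2bp3*, between *Igf2bp3* and *Igfbp3* and between *Igf1r* and *Igf1*, and the same 4 steps were free of overlap in CKO. The other neighbours in the order overlapped in both genotypes, so that each of *Igf2*, *Igfbp5*, *Igfbp2*, *Igf2bp1* and *Igf2r* could not be ranked against its neighbour beyond their spread, nor *Igfbp3* against *Igf1r*.

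Of 49 further genes of the IGF pathway in 5 lists, 37 passed the filter and 0 were called in CKO against WT, in limma without or with the replicate block. Of these 37, 0 had an unadjusted *p* value under 0.05 in the limma fit without the block and 1 in the fit with it, against 8.31% and 18.4% of all tested genes. In CKO 19 were higher and 18 lower, whatever the size, and the median log2 fold change was 0.00, as over all tested genes (0.00). WT and CKO did not overlap for 3 of the 37, *Stc1* and *Akt2*, which were lower in CKO, and *Foxo3*, which was higher, where *Akt2* was named after its values were seen. Of all tested genes, 14.5% did not overlap.

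**Figure D4:**
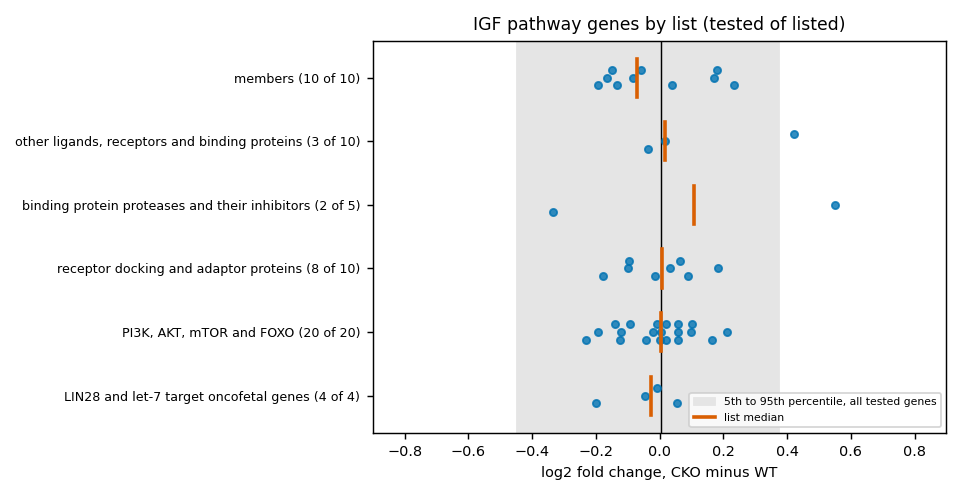
Log2 fold change of CKO minus WT (x axis) of the tested genes of each list (y axis, with the number tested of the number listed). Points are genes, orange bars are list medians, the grey band runs from the 5th to the 95th percentile of all tested genes (-0.45 to 0.38) and the black line is their median. *Htra1* and *Igfbpl1* lie above the band, and the 10 members lie within it.

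Of the other ligands, receptors and binding proteins, 3 of 10 were tested. The insulin genes *Ins1* and *Ins2* were listed at 0 in all 6 libraries, and the binding protein genes *Igfbp6* and *Igfbp7* lay between 0.00 and 0.28 and between 0.18 and 0.80 FPKM, below the filter. The insulin receptor gene *Insr*, whose product can pair with the IGF1 receptor, reached a mean FPKM of 4.95 ± 0.632 in the WT and 5.05 ± 1.01 in the CKO libraries (SD, n = 3 each). *Igfbpl1*, a binding protein relative, had an FPKM of 0.495, 0.951 and 0.564 in WT and 0.833, 1.03 and 0.852 in CKO, with a log2 fold change of 0.42 (limma, SE 0.26, adjusted *p* = 0.726). *Igf2bp2* had a log2 fold change of -0.03 (limma, SE 0.16, adjusted *p* = 0.972).

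Of 5 binding protein proteases and their inhibitors, *Pappa* and *Pappa2*, the genes of the proteases that cleave IGFBP4 and IGFBP5, were below the filter, with FPKM of at most 0.456 and 0.165. *Stc1*, whose product inhibits PAPP-A, had an FPKM of 1.84, 2.09 and 1.97 in WT and 1.49, 1.46 and 1.67 in CKO, lower in every CKO library. Its log2 fold change was -0.34 (limma, SE 0.15, adjusted *p* = 0.601, and 0.271 with the replicate block). *Htra1*, a secreted serine protease that can cleave IGF binding proteins, had an FPKM of 0.424, 0.537 and 1.02 in WT and 0.557, 1.40 and 1.09 in CKO (log2 fold change 0.55, limma SE 0.39, adjusted *p* = 0.782).

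Of the receptor docking and adaptor genes, 8 of 10 were tested, 4 with a log2 fold change above 0 and 4 below, with a median of 0.01. *Irs1*, the gene of a docking protein phosphorylated by the IGF1 and insulin receptors, had an FPKM of 6.69, 7.56 and 8.33 in WT and 9.80, 8.07 and 7.83 in CKO replicates 1, 2 and 3. CKO was higher in replicates 1 and 2 and lower in replicate 3. The log2 fold change was 0.18 for *Irs1* (limma adjusted *p* = 0.81) and -0.18 for *Sos2*, which encodes an activator of RAS (limma adjusted *p* = 0.855).

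All 20 genes of the PI3K, AKT, mTOR and FOXO list were tested, with log2 fold changes between -0.23 and 0.21 and a median of 0.00. *Pik3r2*, which encodes a regulatory subunit of PI3K, had an FPKM of 18.5, 16.4 and 16.7 in WT and 19.0, 11.6 and 14 in CKO replicates 1, 2 and 3 (log2 fold change -0.23, limma adjusted *p* = 0.811). In replicates 2 and 3 alone it was the 1 gene called among 38 pathway genes tested there (limma adjusted *p* = 0.0473), a setting with 15.1% of all tested genes called. *Foxo3*, the gene of a transcription factor kept out of the nucleus by AKT, had an FPKM of 8.5, 8.38 and 9.71 in WT and 10.1, 10.2 and 10.4 in CKO, higher in every CKO library (log2 fold change 0.21, limma SE 0.11, adjusted *p* = 0.685). All 4 genes of the LIN28 and let-7 target list were tested, and *Lin28a* and *Trim71* had log2 fold changes of -0.20 and 0.06 (limma adjusted *p* = 0.956 and 0.985).

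The genes whose values over the 6 libraries were most like those of *Igf2* were *Adamts3*, *Stard9* and *Soga1*, each with a Pearson correlation of 0.992 of log2(FPKM + 0.1) over 6 libraries. *Soga1* had an FPKM of 12.5, 6.74 and 8.14 in WT and 12.9, 7.10 and 6.03 in CKO replicates 1, 2 and 3, high in replicate 1 of both genotypes like *Igf2*. For *Igf1* they were *Ndufb2* (0.991), *Fkbp7* (0.984) and *3632451O06Rik* (0.981). *Fkbp7* had an FPKM of 6.54, 9.90 and 9.11 in WT and 5.58, 7.88 and 5.93 in CKO replicates 1, 2 and 3. These are the highest correlations among 12304 other tested genes, in libraries that share the replicate pattern, and are given as a description.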

How the data were processed

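The authors deposited FPKM for 22040 genes, made from stranded mRNA libraries, with 1 column per library. The submitters' processing notes name cutadapt 2.5, HISAT2 2.1.0 and featureCounts 1.6.3 and the build mm10, without roles, and the strand setting of the counting is not given in the sources used here. Identifiers were matched to GENCODE vM21 (21933 genes). Multiplied by exon length, the FPKM of 92.6% of the matched genes came out within 0.1 of a whole read count in each library, which gave the depth. The FPKM carry a scaling by the authors, as reads exceed the divisor in CKO replicates 2 and 3 (21190287 reads against 19146570 in replicate 2). 33 gene names occurred more than once in the table.

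No further scaling was applied to the deposited FPKM. The 12305 genes with a mean of at least 0.5 were compared with limma 3.58.1 (lmFit, eBayes with trend) in R 4.3.3 on log2(FPKM + 0.1), which understates changes of low genes, with Benjamini-Hochberg adjustment over all genes tested and calls at 0.05. Single genes were compared by exact two-sided permutation tests in scipy 1.17.1. The model was tested on simulated data. The study describes the 3 libraries of each genotype as biological replicates, and how many embryos went into each is not given in the sources used here.

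The same-numbered libraries' deviations from their genotype means correlated over genes by 0.636, 0.443 and 0.266 for replicates 1, 2 and 3, each above 0.1, and on that basis same-numbered libraries were treated as pairs. WT replicate 2 also correlated with CKO replicate 3 by 0.495, and WT replicate 3 with CKO replicate 2 by 0.307. Only replicate 1 thus stood apart by its number.

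All 10 members are named, from each pathway list the called genes or else the 2 with the largest log2 fold change in size, and the 3 genes most like *Igf1* and *Igf2*. *Insr*, *Igf2bp2*, *Igfbp6* and *Igfbp7* are named as relatives of members. The members and lists were chosen with earlier results of these data known. Alternatives were other pseudocounts, filters and scalings, no trend, the replicate block and libraries left out, and, added after seeing the data, voom on the recovered reads without and with the block. Other assays of the series (chromatin accessibility, CUT&RUN, Hi-C) were not analysed here.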

Additional observations from a re-analysis of the deposited data

How the results depend on the processing

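Under 18 alternatives for each of the 10 IGF genes, 168 of 180 log2 fold changes kept their direction and their side of the threshold. The number of members called was 0 in every alternative, the replicate block and voom on the recovered reads included, except in replicates 2 and 3 alone, where it was 1 (*Igfbp5*). There the number of other pathway genes called was 1 (*Pik3r2*) and was 0 in every other alternative. The number of members without overlap was 1 with the globin genes left out and the rest rescaled, 6 in replicates 2 and 3 alone, and between 0 and 6 with single libraries left out. With single libraries left out, the log2 fold change of *Igf2* ran from -0.316 to 0.10 (above 0 without WT replicate 1, 0.0721, or CKO replicate 3), that of *Igf1r* from -0.027 (without CKO replicate 1) to 0.304, that of *Igfbp2* from -0.335 to 0.0174 (without WT replicate 2) and that of *Igf2bp3* from -0.169 to 0.0701 (above 0 without WT replicate 1, 0.0455, or CKO replicate 2). For *Igfbp3* it turned to -0.0662 (globin genes left out) and -0.0192 (replicates 2 and 3 alone), and with single libraries left out it ran from -0.224 to 0.245, with the lowest value without WT replicate 1, and was also below 0 without CKO replicate 2 (-0.0709) and CKO replicate 3 (-0.0538). The causes of these turns were not tested. *Igf1*, *Igf2r*, *Igfbp4*, *Igfbp5* and *Igf2bp1* kept their direction in each alternative run. Over all tested genes, replicates 2 and 3 alone gave 877 genes called higher and 986 lower, the replicate block 139 and 207, voom with the block 235 and 393, and the fit of all libraries without it 7 and 1. The replicate block changed no call among the IGF and pathway genes. With 3 libraries per genotype, the fit without the block bounded the difference inside 2-fold for 10 of the 10 members. It bounded the difference inside 1.5-fold for only 4 of them. The counting of *Igf2* reads shared with *Gm49394* could not be varied.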
